A study of Homo sapiens with 3 samples.

Results

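The human mitochondrial genome carries 37 genes, and all 37 were found among the 60930 genes of the expression table by the MT- prefix of their symbols. They comprise 13 protein genes, 2 rRNA genes and 22 tRNA genes. RNA-seq had been run on 3 libraries of PC3, an androgen-independent prostate cancer cell line. The libraries came from cells with a control vector (shCON, also labelled RFP) or with 1 of 2 hairpins against the deubiquitinase USP16 (shUSP16#1 and shUSP16#2). The study's methods describe hairpins in the pLKO.1 vector and stable PC3 lines isolated under puromycin, a selection that all 3 groups would then share. The time from that selection to harvest is not given in the sources used here. Each condition had 1 library, so no difference here has a replicate check and no test across samples is possible. The labels do not say whether a line was 1 clone. Levels are given in TPM, reads per gene divided by gene length and then scaled to a fixed total, a unit that keeps no record of depth. Counting error can therefore not be stated. A change is the log2(TPM + 1) value under a hairpin minus that in shCON, a scale that understates changes of low genes.

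Mitochondrial DNA is a small circle transcribed from both strands into long precursors. The tRNAs punctuate the precursors and are cut out by nuclear-encoded enzymes, which frees the rRNAs of the mitochondrial ribosome and the mRNAs between them. The mRNAs encode core subunits of respiratory complexes I, III and IV and of the ATP synthase, complex V, while every other protein of the organelle is made from nuclear genes.

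Positions are those of GENCODE release 29 on GRCh38, whose lengths equalled those of the table for all 13 protein genes, 2 rRNA genes and 22 tRNA genes. On the forward strand lie 12 of the 13 protein genes, both rRNA genes and 14 tRNA genes, and on the reverse strand MT-ND6 and 8 tRNA genes. Protein genes were 207 to 1812 bases long, the rRNA genes 954 and 1559 bases, and the tRNA genes 59 to 75 bases. All are single uninterrupted units without introns, and the sequences shown are reference sequences of the GENCODE transcripts, not reads of PC3.

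A pair of mRNAs each carry 2 overlapping reading frames, and these stretches are shown because both genes of each pair lie on 1 mRNA. MT-ATP8 and MT-ATP6 share 46 bases and MT-ND4L and MT-ND4 share 7 bases, set in capitals with 30 bases on each side.
MT-ATP8 to MT-ATP6, chrM:8497-8602, forward: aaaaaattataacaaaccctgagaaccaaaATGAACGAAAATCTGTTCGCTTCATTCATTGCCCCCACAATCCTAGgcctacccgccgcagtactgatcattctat
MT-ND4L to MT-ND4, chrM:10730-10796, forward: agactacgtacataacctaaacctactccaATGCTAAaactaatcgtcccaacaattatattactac

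MT-ATP6 also has a nuclear copy, MTATP6P1 (ENSG00000248527, forward strand of chromosome 1 from 633696 to 634376), which differed from it at 10 of 681 bases. The window of 60 bases that holds the most differences, bases 116 to 175 of each gene, is shown because even there only 3 bases, in capitals, tell the genes apart. The longest run without a difference was 141 bases.
MT-ATP6, chrM:8642-8701, forward: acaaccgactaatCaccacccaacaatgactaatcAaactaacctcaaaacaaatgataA
MTATP6P1, chr1:633811-633870, forward: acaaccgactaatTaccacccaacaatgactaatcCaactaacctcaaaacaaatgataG

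The smallest gene of the set is MT-TS2, the tRNA for serine codons AGU and AGC, and is shown whole for its length against that of the mRNAs.
MT-TS2, chrM:12207-12265, forward: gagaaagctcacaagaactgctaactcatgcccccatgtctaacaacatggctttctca

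Knockdown and cell line were first checked. For USP16, the level in shCON of 19.9 TPM compared with 3.5 TPM (shUSP16#1) and 1.08 TPM (shUSP16#2), changes of -2.22 and -3.33. The epithelial keratin KRT18 was at 778 to 947 TPM and KRT8 at 622 to 748 TPM. EPCAM, an epithelial adhesion molecule, was at 273.5, 166 and 136 TPM, changes of -0.72 and -1.003, while KLK3, which encodes the prostate-specific antigen, was listed at 0 in every library. Of all genes, 13629 had a mean of at least 1 TPM and were compared, and their median change was -0.17 under shUSP16#1 and -0.37 under shUSP16#2. Structural RNA genes, most of them short (5S, 5.8S and other rRNA, 7SL, 7SK, U and Y RNA, snoRNA, microRNA and similar names), held 1.59% of all TPM in shCON, 0.549% under shUSP16#1 and 6.6% under shUSP16#2. Because TPM are shares of a fixed sum, more of such RNA lowers every other value. Rescaling without such RNA moved the median change of the mitochondrial protein genes from 0.02 to 0.0076 under shUSP16#1. Under shUSP16#2 it moved from -0.37 to -0.29. Members and nuclear lists below were chosen with earlier results of these data known.

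The mitochondrial genes together held 5.8% of all TPM in shCON, 6.25% under shUSP16#1 and 4.58% under shUSP16#2. Nearly all of it came from protein genes, at 5.4%, 5.86% and 4.21%. The rRNA genes gave 0.394%, 0.391% and 0.365%, and the tRNA genes gave none. The share was thus highest under shUSP16#1 and lowest under shUSP16#2, on opposite sides of shCON. With short structural RNA left out of the sum, the shares were 5.89%, 6.29% and 4.9%. Multiplying TPM by gene length, which approximates a share of sequenced bases and was chosen after the data were seen, gave 2.49%, 3.13% and 2.42%, and shUSP16#2 then lay near shCON. In bulk RNA a lower level in every cell and a low level in some of the cells cannot be told apart.

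**Figure D1:**
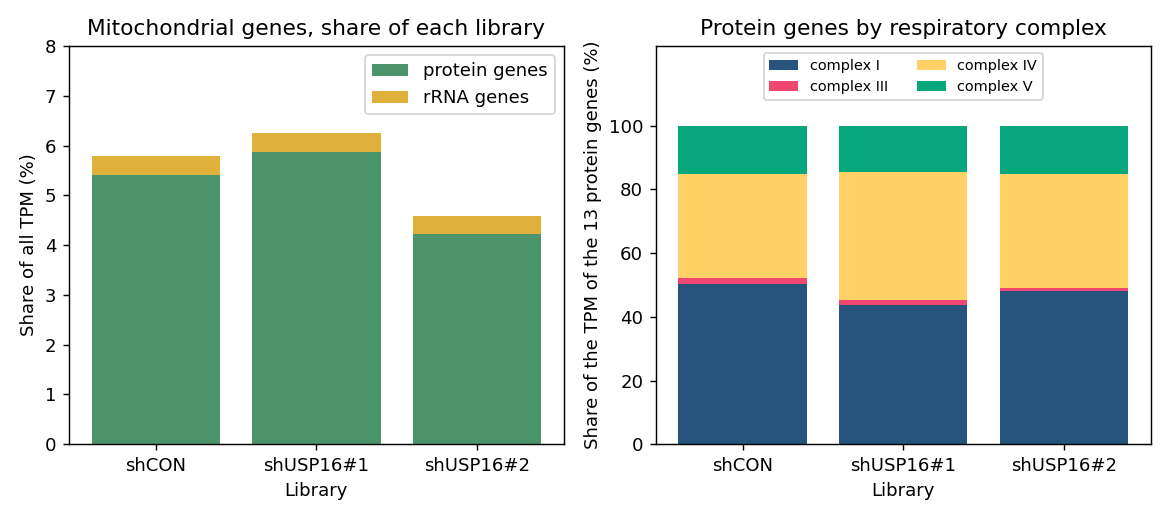
Stacked bars show, for the libraries shCON, shUSP16#1 and shUSP16#2, the share of all TPM held by mitochondrial protein and rRNA genes (left, in percent) and the share of each respiratory complex in the TPM of the 13 protein genes (right, in percent). The left bars reach 5.8%, 6.25% and 4.58%, and complex IV takes 32.6%, 40.2% and 35.6% on the right.

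The 13 protein genes were all detected in every library and ranged from 232 to 8840 TPM in shCON, from 692 to 10171 TPM under shUSP16#1 and from 457 to 6656 TPM under shUSP16#2. Their summed level was 54027 TPM (shCON), 58615 TPM (shUSP16#1) and 42129 TPM (shUSP16#2). Their median change was 0.02 under shUSP16#1 and -0.37 under shUSP16#2, beside -0.17 and -0.37 for all compared genes. Under shUSP16#1, 7 of the 13 were higher than in shCON and 6 lower, and 11 lay above the median of all genes. Under shUSP16#2, 12 of the 13 were lower than in shCON and 1 was higher, and 6 lay above that median. Of all 13629 compared genes, 8414 were lower and 5137 higher under shUSP16#1, and 9567 lower and 4020 higher under shUSP16#2.

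Few of these changes were large. At least 2-fold lower values were found for 0 of the 13 under shUSP16#1, beside 5.76% of all compared genes, and for 1 of the 13 under shUSP16#2, beside 19.5%. At least 2-fold higher values were found for 1 of the 13 under each hairpin, beside 2.82% and 2.78% of all compared genes. The lower gene was MT-CYB and the higher one MT-ATP6. Both hairpins are compared with the same shCON library, so their changes are not independent of each other.

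**Figure D2:**
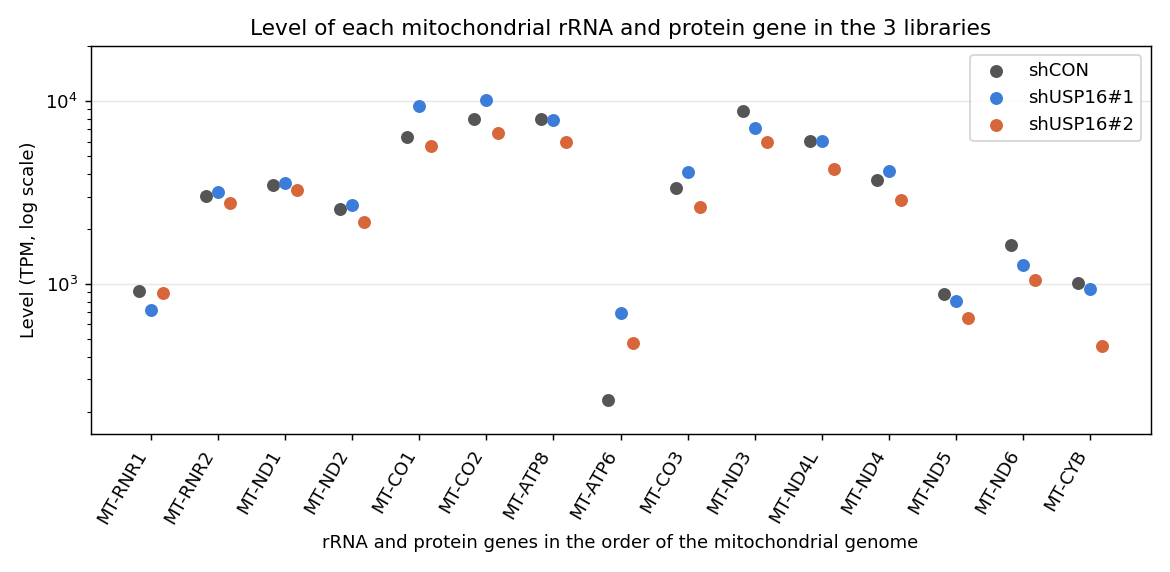
Points show the TPM level (log scale) of the 2 rRNA genes and 13 protein genes in genome order in shCON, shUSP16#1 and shUSP16#2, 1 library each. MT-ATP6 is the lowest protein gene in shCON at 232 TPM, between MT-ATP8 at 7994 TPM and MT-CO3 at 3342 TPM.

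Complex I takes electrons from NADH and passes them to ubiquinone, and 7 of its membrane subunits are mitochondrial genes. MT-ND3 had the highest level of them, with 8840 TPM (shCON), 7138 TPM (shUSP16#1) and 5975 TPM (shUSP16#2). MT-ND4L followed with 6073, 6019 and 4270 TPM. MT-ND4, its partner on the same mRNA, was at 3702, 4132 and 2864 TPM. MT-ND4L thus stood at 1.64, 1.46 and 1.49 times MT-ND4, a ratio that differed little between libraries. This was not particular to a pair on 1 mRNA, since MT-CO2 stood at 2.38, 2.5 and 2.52 times MT-CO3.

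MT-ND1 was at 3491 TPM (shCON), 3546 TPM (shUSP16#1) and 3251 TPM (shUSP16#2), the smallest spread of the protein genes relative to level. MT-ND2 was at 2575, 2694 and 2187 TPM. MT-ND5, the longest gene of the genome, was at 877, 803 and 649 TPM. These 3 genes and the MT-ND4 pair were all lowest under shUSP16#2.

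MT-ND6, the only protein gene read from the reverse strand, was at 1629 TPM (shCON), 1262 TPM (shUSP16#1) and 1047 TPM (shUSP16#2), changes of -0.37 and -0.64. It had the lowest change of the 13 under shUSP16#1. Whether reads were counted by strand is not given in the sources used here, so reads of MT-ND6 and of precursor RNA opposite to it cannot be told apart. Over the 7 complex I genes, the change ran from -0.37 to 0.16 under shUSP16#1, with 3 higher and 4 lower, and from -0.64 to -0.10 under shUSP16#2, with all 7 lower, of which 2 (MT-ND1 and MT-ND2) lay above the median of all genes.

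Complex III, which passes electrons from ubiquinol to cytochrome c, has 1 mitochondrial subunit, cytochrome b (MT-CYB). MT-CYB was at 1009 TPM (shCON), 931 TPM (shUSP16#1) and 457 TPM (shUSP16#2). The levels in shCON and under shUSP16#1 lay close together, and that under shUSP16#2 stood apart, with changes of -0.12 and -1.14. Relative to the median of all compared genes, the change under shUSP16#2 was -0.77, no longer past 2-fold, and under shUSP16#1 the sign turned, to 0.05. MT-ND5, which lies before MT-CYB on the forward strand, was at 0.869 and 0.863 times the level of MT-CYB in shCON and under shUSP16#1, and at 1.42 times under shUSP16#2. MT-CYB was 11th of the 13 by level in shCON and under shUSP16#1 and 13th under shUSP16#2.

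Complex IV, cytochrome c oxidase, reduces oxygen, and its 3 catalytic core subunits are mitochondrial. MT-CO1 was at 6316 TPM (shCON), 9329 TPM (shUSP16#1) and 5688 TPM (shUSP16#2). MT-CO2 was at 7948, 10171 and 6656 TPM. MT-CO3 was at 3342, 4073 and 2638 TPM. All 3 were highest under shUSP16#1 and lowest under shUSP16#2, with changes of 0.56, 0.36 and 0.29 under shUSP16#1 and of -0.15, -0.26 and -0.34 under shUSP16#2, though relative to the median of all compared genes (-0.37) all 3 were on the higher side under shUSP16#2 too. The ratio of MT-CO2 to MT-CO3 stood at 2.38, 2.5 and 2.52 in the same order of libraries.

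Complex V makes ATP, with MT-ATP6 forming part of its proton path and MT-ATP8 a small membrane subunit beside it. MT-ATP8 was at 7994 TPM (shCON), 7827 TPM (shUSP16#1) and 5971 TPM (shUSP16#2). MT-ATP6, encoded on the same mRNA, was at 232 TPM (shCON), 692 TPM (shUSP16#1) and 477 TPM (shUSP16#2). MT-ATP6 was lowest in shCON, with changes of 1.57 and 1.04, and was the only protein gene higher than in shCON under shUSP16#2.

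MT-ATP8 stood at 34.5 times MT-ATP6 in shCON, 11.3 times under shUSP16#1 and 12.5 times under shUSP16#2, far from the ratio of the MT-ND4L pair. The nuclear copy MTATP6P1 was at 163 TPM (shCON), 215 TPM (shUSP16#1) and 146 TPM (shUSP16#2), which is 70.3%, 31.0% and 30.7% of the level of MT-ATP6. How the authors' counting split reads between these near-identical genes is not given in the sources used here, so the level of MT-ATP6 is uncertain. Nor is it given how reads over the 46 bases that MT-ATP8 and MT-ATP6 share were counted. The level of MT-ATP8 and the ratios of this pair are therefore uncertain too. With the copy added the levels were 395, 907 and 623 TPM and the changes 1.20 and 0.66, the second no longer past 2-fold. MT-ATP8 was then still at 20.2, 8.63 and 9.59 times the sum.

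Other protein genes share sequence with nuclear copies too. Of all windows of 100 bases, 27.9% of those of MT-CO1, 26.1% of MT-ND2, 11.9% of MT-ATP6, 11.0% of MT-ND1, 4.38% of MT-CO3 and 2.39% of MT-CO2 occurred unchanged in an annotated nuclear gene, which for all 6 was a copy on chromosome 1. For the other 7 protein genes and both rRNA genes the share was 0% at this window length. With windows of 50 bases it was 17.9% for MT-ND6, 14.0% for MT-RNR2, 8.23% for MT-ATP8 and 4.76% for MT-ND5. It was then 3.54% for MT-ND4 and 1.19% for MT-CYB, and still 0% for MT-ND3, MT-ND4L and MT-RNR1. MTCO1P12 (chromosome 1 from 631074 to 632616), 98.7% identical to MT-CO1, was at 73.0, 113 and 70.0 TPM, which is 1.16%, 1.21% and 1.23% of MT-CO1. MT-CO1 thus had a larger shared part than MT-ATP6. Its copy was at a far smaller share of its level, but the share for MT-ATP6 rests on the low and uncertain level of that gene. In TPM the copies differed less, with MTATP6P1 at 163, 215 and 146 TPM. These values do not show how reads were split between a gene and its copy. Of 407 annotated nuclear copies, 5 had a mean of at least 1 TPM and 3 of at least 5 TPM, the third being MTRNR2L1 (16.4, 25.3 and 20.7 TPM), which was 89.0% identical to MT-RNR2.

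**Figure D3:**
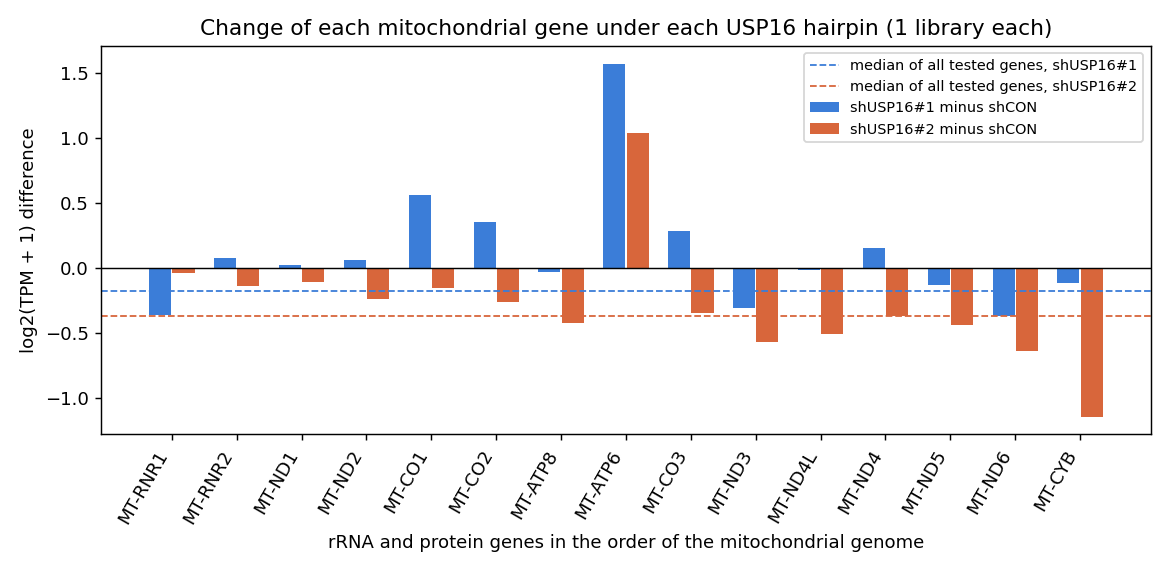
Bars show the log2(TPM + 1) difference from shCON of each mitochondrial rRNA and protein gene under shUSP16#1 and shUSP16#2, 1 library each, and dashed lines the median of all compared genes (-0.17 and -0.37). MT-ATP6 is at 1.57 and 1.04, MT-CYB is at -0.12 and -1.14, and the 3 MT-CO genes lie above 0 under shUSP16#1 and between the dashed line and 0 under shUSP16#2.

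The share of each complex in the TPM of the 13 protein genes does not depend on the scaling of TPM to the whole library. It can still depend on how reads were split between these genes and their nuclear copies. Complex I genes held 50.3% in shCON, 43.7% under shUSP16#1 and 48.0% under shUSP16#2. Complex III held 1.87%, 1.59% and 1.08%, complex IV 32.6%, 40.2% and 35.6%, and complex V 15.2%, 14.5% and 15.3%. Under shUSP16#1 the weight thus lay more on complex IV and less on complex I than in shCON. Under shUSP16#2 both shares lay between those of the other libraries. In percentage points the widest ranges were those of MT-ND3, with 16.4%, 12.2% and 14.2%, and of MT-CO1, with 11.7%, 15.9% and 13.5%. In relative terms the widest were those of MT-ATP6, with 0.429%, 1.18% and 1.13%, and of MT-CYB, with the complex III shares above.

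TPM of the 13 protein genes differed although most come from 1 precursor. Genes on 1 mRNA differed as well: in shCON MT-ATP8 stood at 34.5 times MT-ATP6 and MT-ND4L at 1.64 times MT-ND4. An order by TPM therefore need not be an order of RNA amount. In shCON the order of the 13 by TPM was MT-ND3, MT-ATP8, MT-CO2, MT-CO1, MT-ND4L, MT-ND4, MT-ND1, MT-CO3, MT-ND2, MT-ND6, MT-CYB, MT-ND5 and MT-ATP6. With 1 library per condition, neighbours in this order cannot be told apart from each other. The first 5 in shCON were also the first 5 under each hairpin, in another order. The 3 shortest, MT-ATP8, MT-ND4L and MT-ND3, were among these 5, and the rank correlation of level with length across the 13 genes was -0.41, -0.27 and -0.39, given as a description, since genes of 1 library are not independent.

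The rRNA genes form the start of the genome's forward transcripts and encode the RNA core of the mitochondrial ribosome. MT-RNR1, the 12S rRNA, was at 916 TPM (shCON), 715 TPM (shUSP16#1) and 893 TPM (shUSP16#2). MT-RNR2, the 16S rRNA, was at 3028 TPM, 3196 TPM and 2762 TPM. They had changes of -0.36 and 0.08 under shUSP16#1 and of -0.04 and -0.13 under shUSP16#2, and neither passed 2-fold. Their sum was at 3945, 3911 and 3655 TPM, changes of -0.01 and -0.11, which became 0.16 and 0.26 relative to the median of all genes. MT-RNR2 over MT-RNR1 was 3.3, 4.47 and 3.09.

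The protein genes summed to 13.7, 15.0 and 11.5 times the rRNA genes in TPM. How ribosomal RNA was treated in library preparation is not given in the sources used here beyond the name of the kit, an Illumina TruSeq RNA kit, so this ratio describes the libraries and not the cells.

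All 22 tRNA genes, from MT-TS2 at 59 bases to MT-TL1 at 75 bases, were listed at 0 TPM in each library. Genes of that length were rarely listed above 0 at all. Of the 1058 other genes between 59 and 75 bases, 1 (HLA-Z, chosen after its values were seen) was above 0 in any library, and of all 3062 genes of up to 100 bases also 1. The share above 0 was 2.26% of genes over 100 and up to 150 bases, and 69.0% of genes over 1000 bases. The shortest protein gene of the mitochondrial genome, MT-ATP8 at 207 bases, was among the genes of highest level. How genes of this length were counted is not given in the sources used here, so the zeros are no measure of mitochondrial tRNA in these cells, and no comparison of tRNAs could be made.

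**Figure D4:**
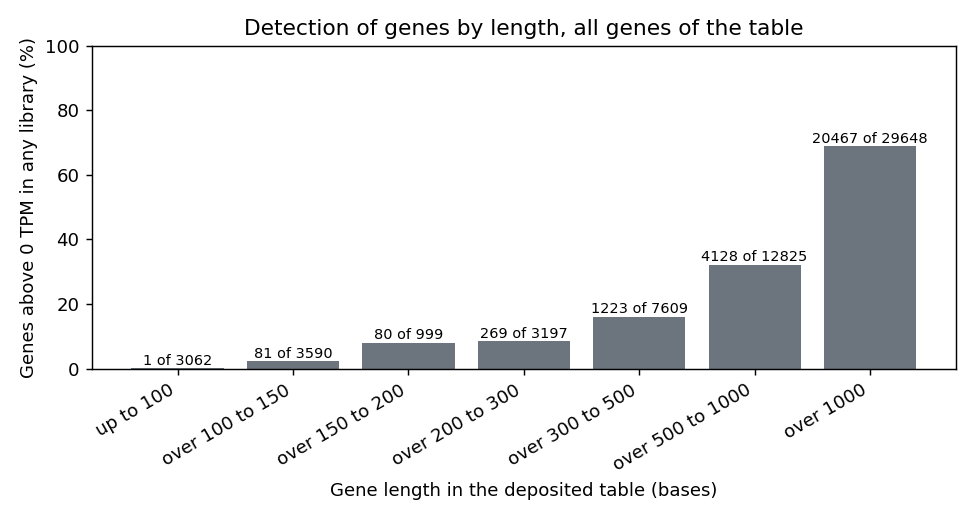
Bars show the percentage of all genes of the table that are above 0 TPM in any of the 3 libraries, by gene length in bases, with the counts above each bar. Of genes up to 100 bases, where the 22 mitochondrial tRNAs lie, 1 of 3062 is above 0, against 20467 of 29648 over 1000 bases.

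Nuclear genes that act on the mitochondrial genome were taken from fixed lists. For transcription and replication of mitochondrial DNA, 20 of 20 genes were compared, with median changes of -0.37 under shUSP16#1 and -0.73 under shUSP16#2, beside -0.17 and -0.37 for all genes. At least 2-fold lower values were found for 2 and 5 of the 20, beside the 5.76% and 19.5% of all genes. At least 2-fold higher values were found for 0 and 0, beside 2.82% and 2.78% of all genes. TFAM, which packages mitochondrial DNA and activates its promoters, was at 55.7 TPM (shCON), 23.5 TPM (shUSP16#1) and 15.9 TPM (shUSP16#2). TFB2M, which opens the promoters for the polymerase, was at 59.97, 27.53 and 19.45 TPM, and TEFM, the elongation factor, at 12.9, 8.65 and 4.71 TPM. These 3 were highest in shCON and lowest under shUSP16#2.

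Other members of this list lay on the other side. POLRMT, the mitochondrial RNA polymerase, was at 28.9 TPM (shCON), 37.9 TPM (shUSP16#1) and 39.4 TPM (shUSP16#2). TFB1M, which methylates the 12S rRNA, was at 6.38, 8.78 and 7.13 TPM. The changes were 0.38 and 0.44 for POLRMT and 0.41 and 0.14 for TFB1M, against -1.21 and -1.74 for TFAM and -1.10 and -1.58 for TFB2M.

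For processing, modification and decay of mitochondrial RNA, 43 of 44 names matched a separate gene and were compared (TBRG4 is also called FASTKD4), with median changes of -0.30 and -0.57. At least 2-fold lower values were found for 3 and 9 of the 43, beside 5.76% and 19.5% of all genes. At least 2-fold higher values were found for 0 and 0, beside 2.82% and 2.78% of all genes. LRPPRC, which stabilizes mitochondrial mRNAs, was at 34.6 TPM (shCON), 14.9 TPM (shUSP16#1) and 9.69 TPM (shUSP16#2). PNPT1, the degrading ribonuclease of the matrix, was at 25.1, 11.7 and 7.63 TPM, and QTRT2, a subunit of the tRNA queuosine enzyme, at 31.7, 15.0 and 11.9 TPM. FASTK, needed for MT-ND6 mRNA, was at 63.6, 85.0 and 93.6 TPM, and RPUSD3, a pseudouridine synthase, at 43.7, 53.7 and 61.3 TPM. The changes were -1.16 and -1.74 for LRPPRC and -1.04 and -1.60 for PNPT1.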

How the data were processed

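Total RNA of PC3 cells was made into libraries with an Illumina TruSeq RNA kit and sequenced by Majorbio. The submitters' processing notes name CASAVA, HISAT2 and hg19, without their roles. The counting tool is not given in the sources used here. The authors deposited TPM values with 2 decimals and gene lengths in bases, and 3 further columns that repeat these values were not used. TPM keeps no depth, so the precision of a value is unknown.

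Changes were computed as log2(TPM + 1) differences. Later entries with a repeated name (1211) were left out, and the 13629 genes averaging 1 TPM or more over the libraries were compared. A change counted as large at 2-fold. With 1 library per condition, no test was run. The members and lists were chosen with earlier results of these data known. All 37 members are described. Nuclear genes were named by a rule: in each list, of the genes averaging 5 TPM or more, the 3 with the lowest and the 2 with the highest mean change, and likewise nuclear copies at that level. Positions, GC content and sequences came from GENCODE release 29 (GRCh38), since the hg19 annotation was not used here. Copies were aligned globally with Biopython 1.88. As alternatives, minimums of 0 or 5 TPM were set, 0.1 was added in place of 1, and changes were taken relative to the overall median. Others were rescaling without short structural RNA or without mitochondrial genes, adding nuclear copies, and removal of the trend with GC content in 50 bins. Only the counts past 2-fold and a median change were tested on simulated data, with less than 1 added to each value. The other steps were not tested in this way. Python 3.11.15, numpy 2.4.6, pandas 2.3.3 and matplotlib 3.10.9 were used.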

Additional observations from a re-analysis of the deposited data

How the results depend on the processing

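No paired analysis was possible because the labels give no replicate numbers and every arm is a single library, so none could be left out either. The nuclear copy added to MT-ATP6, the values without MT-ATP6 and TPM multiplied by length were chosen after seeing the data. The cause of the differences between settings was not tested. The main values of the 4 median changes were 0.02 and -0.37 for the mitochondrial protein genes and -0.34 and -0.65 for the nuclear genes of mitochondrial DNA expression (shUSP16#1 first, as in all pairs below).

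The median of the 13 protein genes became 0.19 and -0.0019 when centred, 0.0076 and -0.29 without short structural RNA, 0.030 and -0.39 without the mitochondrial genes, 0.32 and -0.10 with the GC trend removed, 0.12 and -0.36 as a sum and 0.0051 and -0.40 without MT-ATP6. The rRNA sum (-0.01 and -0.11) became 0.16 and 0.26 when centred, -0.028 and -0.035 without short structural RNA, and -0.13 under shUSP16#2 without the mitochondrial genes. The nuclear median became -0.36 and -0.71 with a pseudocount of 0.1, -0.16 and -0.28 when centred, -0.35 and -0.59 without short structural RNA, -0.33 and -0.67 without the mitochondrial genes, -0.30 and -0.51 with a minimum of 5 TPM, and -0.30 and -0.52 with the GC trend removed. MT-CYB under shUSP16#2 (-1.14) was past 2-fold under each alternative run but centring (-0.77), with -1.01 after removal of the GC trend. MT-ATP6 stayed past 2-fold under each but the added copy, which gave 0.66 under shUSP16#2.

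Genes at least 2-fold lower under shUSP16#1 (785) became 1303 with a pseudocount of 0.1, 434 when centred and 526 with a minimum of 5 TPM, and under shUSP16#2 (2653) 3580, 1054 and 1809. Genes at least 2-fold higher (384 and 379) became 624 and 565 with a pseudocount of 0.1, 604 and 878 when centred, and 195 and 204 with a minimum of 5 TPM. Counts under the other settings lay within 1.5 times those in parentheses. The 22 tRNA genes were at 0 whatever the minimum. The share of all TPM, in the order shCON, shUSP16#1, shUSP16#2, was 5.89%, 6.29% and 4.9% without short structural RNA, 2.49%, 3.13% and 2.42% with TPM multiplied by length, and 5.81% in shCON and 4.62% under shUSP16#2 without repeated names.

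With nuclear copies added, complex I held 50.1%, 43.4% and 47.8% of the protein genes' TPM, complex III 1.86% in shCON and 1.58% under shUSP16#1, complex IV 35.5% under shUSP16#2, and complex V 15.5%, 14.8% and 15.6%. Without MT-ATP6 these shares were 50.5%, 44.2% and 48.6% for complex I, 1.88%, 1.61% and 1.10% for complex III, 32.7%, 40.7% and 35.97% for complex IV, and 14.9%, 13.5% and 14.3% for complex V.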

Other observations

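Nuclear subunits of the respiratory chain gave a point of comparison for the 13 mitochondrial protein genes. They were assigned to a complex by gene symbol, not by their place in it, and do not cover every subunit. The complex I set thus holds all genes named NDUFA, NDUFB, NDUFC, NDUFS or NDUFV with a number, NDUFA4 included. Of 77 nuclear subunits of complexes I to V, 76 were compared, with median changes of -0.09 under shUSP16#1 and -0.14 under shUSP16#2, beside 0.02 and -0.37 for the mitochondrial protein genes and -0.17 and -0.37 for all genes. Of the 76, 48 lay above the median of all genes under shUSP16#1 and 59 under shUSP16#2. Their summed level was 33210 TPM (shCON), 33538 TPM (shUSP16#1) and 32434 TPM (shUSP16#2). The mitochondrial protein genes summed to 1.63, 1.75 and 1.3 times the nuclear subunits in these libraries. By complex, the nuclear medians were -0.14 and -0.11 for complex I (38 genes), -0.05 and -0.27 for complex II (4 genes), -0.01 and -0.12 for complex III (9 genes), 0.06 and -0.18 for complex IV (10 genes) and -0.11 and -0.20 for complex V (15 genes).

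Within each complex, the nuclear subunits with the lowest and highest mean change lay on both sides of 0. In complex I, NDUFA5 was at 32.7 TPM (shCON), 21.7 TPM (shUSP16#1) and 12.8 TPM (shUSP16#2), and the changes were -0.57 and -1.29 for it, -0.44 and -1.11 for NDUFS1, -0.37 and -1.02 for NDUFA12, 0.42 and 0.45 for NDUFA2 and 0.63 and 0.50 for NDUFA13. In complex II, which has no mitochondrial gene, the changes were -0.95 and -0.91 for SDHD, -0.12 and -0.40 for SDHB, 0.02 and -0.14 for SDHC and 0.07 and 0.08 for SDHA. In complex III, the complex of MT-CYB, they were -0.37 and -0.94 for UQCRB, -0.48 and -0.64 for UQCRC2, -0.12 and -0.31 for UQCRFS1, 0.35 and 0.30 for UQCR11 and 0.43 and 0.41 for UQCRC1. In complex IV they were -0.41 and -0.42 for COX5A, -0.17 and -0.34 for COX7B, -0.10 and -0.28 for COX6C, 0.26 and 0.19 for COX7A2 and 0.36 and 0.17 for COX6A1. In complex V they were -0.63 and -0.89 for ATP5PB, -0.47 and -0.60 for ATP5F1C, -0.36 and -0.52 for ATP5PF, 0.14 and 0.27 for ATP5MC3 and 0.26 and 0.34 for ATP5MC2.

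Among 20 regulators of mitochondrial content, 16 were compared, with median changes of -0.42 and -0.80, beside -0.17 and -0.37 for all genes. At least 2-fold lower values were found for 2 of the 16 under shUSP16#1 and 6 under shUSP16#2, beside 5.76% and 19.5% of all genes, and at least 2-fold higher values for 0 and 0, beside 2.82% and 2.78%. SIRT1, a deacetylase of the PGC-1 coactivators, was at 13.2, 4.34 and 3.39 TPM, and PRKAA1, a catalytic subunit of AMP kinase, at 20.3, 11.0 and 6.77 TPM. PINK1, which marks damaged mitochondria for removal, was at 58.8, 86.5 and 78.8 TPM, and ESRRA, a nuclear receptor of respiratory genes, at 86.2, 99.3 and 96.7 TPM. TFAM, described above, is in this list too. Among those below the minimum, PPARGC1A, the PGC-1 alpha gene, named after its values were seen, was listed at 0 in all 3 libraries.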
